A study of Homo sapiens with 124 samples.

Results

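The KRAB zinc finger gene clusters are stretches of the human genome in which genes for zinc finger proteins with a KRAB domain stand side by side. They were followed here in single-cell maps of contact with the nuclear lamina, in 9 clusters given by hg19 position. On chromosome 19 these were 19p12 (19.9 to 24.4 Mb), 19q13.12 (36.6 to 38.4 Mb), 19q13.31 (44.2 to 45 Mb), 19q13.41 (52.3 to 54 Mb) and 19q13.43 (56.3 to 59.1 Mb). The others were 7q11 (63.4 to 65 Mb), 4p16 (0 to 0.5 Mb), 10p11 (37.7 to 38.7 Mb) and 12q24 (133.4 to 133.8 Mb). A member was any usable 100 kb bin that starts inside one of them, which gave 151 of 26426 usable bins. 19p12 held 45 of these, 19q13.43 held 28, 19q13.12 held 18, 19q13.41 held 17, 7q11 held 16, 10p11 held 10, 19q13.31 held 8, 4p16 held 5 and 12q24 held 4. The band names were added for reading, and the rule uses positions only.

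The cells were KBM7, a near-haploid line from a chronic myeloid leukaemia, and the 118 cells used were all haploid cells of clone 14, a single clone. Every cell carried LaminB1, a protein of the lamina under the nuclear envelope, fused to the bacterial methyltransferase Dam, which marks adenines in GATC motifs near the lamina. Dam was induced with 0.5 nM Shield1, a small molecule that stabilises fusions with a destabilising domain, for 15 h, and the smallest 2% of cells positive for both Fucci cell cycle markers were sorted and amplified with 21 extension steps. The labels give 1 group, with no untreated cells, and no profile of unfused Dam was used here, so that accessibility was not separated from contact beyond what the deposited ratio corrects.

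KRAB zinc finger proteins bind DNA through arrays of zinc fingers, many of them at transposable elements. Their KRAB domain recruits TRIM28, also called KAP1, which brings in enzymes that place the heterochromatin mark H3K9me3. The clusters grew by repeated gene duplication, and their own gene bodies are known to carry H3K9me3 in many cell types. Chromosome 19, which is dense in active genes, holds many of them.

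Gene names and order came from RefSeq (GRCh38.p14), in which all 190 genes listed for the clusters were found. 19p12 runs from ZNF253 to ZNF254, and 34 of the 35 coding genes in that span have zinc finger names, among them ZNF91 and ZNF93, known to bind SVA and L1 retrotransposons. The genes listed for 19q13.43 end with TRIM28 itself, and 12q24 holds ZNF10, the source of a KRAB domain widely used as a repressor. GRCh38 positions are not those of the hg19 bins, so no bin was assigned to a gene. Dam can only mark a GATC, and the motif is the same on both strands, so a start of a gene without it is seen only through its surroundings. The RefSeq stretches of 250 bases before the start of 1 gene each of a cluster with intermediate, low and no contact are shown with GATC in capitals, the motif that Dam methylates and DpnI cuts: ZNF93 of 19p12 at chr19:19900696-19900945, ZNF727 of 7q11 at chr7:64045184-64045433 and ZNF26 of 12q24 at chr12:132986117-132986366, all in GRCh38.p14 and on the + strand.
ZNF93: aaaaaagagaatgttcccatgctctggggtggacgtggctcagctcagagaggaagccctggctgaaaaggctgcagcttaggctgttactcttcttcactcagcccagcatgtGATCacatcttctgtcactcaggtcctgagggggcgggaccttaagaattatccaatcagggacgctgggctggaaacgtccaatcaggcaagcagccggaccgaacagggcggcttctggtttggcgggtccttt
ZNF727: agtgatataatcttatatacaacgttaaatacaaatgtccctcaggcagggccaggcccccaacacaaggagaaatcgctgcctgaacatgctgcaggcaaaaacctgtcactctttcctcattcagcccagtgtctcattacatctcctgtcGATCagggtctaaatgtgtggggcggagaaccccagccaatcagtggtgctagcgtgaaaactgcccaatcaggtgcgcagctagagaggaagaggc
ZNF26: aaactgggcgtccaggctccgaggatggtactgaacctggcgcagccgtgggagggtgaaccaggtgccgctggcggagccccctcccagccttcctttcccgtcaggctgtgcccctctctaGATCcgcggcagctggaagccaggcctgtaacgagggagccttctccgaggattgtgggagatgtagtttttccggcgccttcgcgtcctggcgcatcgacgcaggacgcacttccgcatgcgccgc
The contact levels named for them are those of the whole clusters. ZNF93 and ZNF727 stand near the starts of theirs, where the levels of single bins, given below, are unlike that of the cluster. Each of the 3 stretches holds 1 GATC, and they differ in CpG dinucleotides, with 8 in ZNF93, 6 in ZNF727 and 22 in ZNF26. Of promoter windows of 300 bases (250 before and 50 after the start), GATC was found in 20 of 25 in 19p12, 19 of 25 in 19q13.41, 12 of 27 in 19q13.12, 6 of 16 in 19q13.31, 9 of 39 in 19q13.43, 5 of 11 in 7q11, 2 of 3 in 4p16, 0 of 4 in 10p11 and 4 of 7 in 12q24. Over all listed genes with a window this was 49.0%, and over all 27326 RefSeq promoters it was 41.8%. The share did not run with the contact levels given next, since 19p12 and 19q13.41 were both near the top of it, at 80 and 76%, and 10p11 was at 0.

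A bin counted as in contact in a cell when its deposited ratio of observed to expected reads was 1 or more. Frequency gives, for a bin, the percentage of the 118 cells that were in contact, and the contact share of a cluster gives, for a cell, the percentage of the cluster's bins in contact. Reads recovered from the ratios ranged from 28372 to 385661 (median 135782), and the genome as a whole had a contact share of 33.0% ± 5.47 (SD, n = 118). In the median cell, 5.63 reads in the median bin made up a value of 1. The 28 cells numbered 96 to 124 stood apart from the 90 numbered 1 to 94 with fewer bins without a read, a median of 28.7% against 48.4%. In the 47 bins of 19q13.12, 19q13.31, 19q13.41 and 12q24, which were hardly ever in contact, their mean ratio was 0.107 against 0.0233. Both sets are therefore given where a result rests on them. No culture is named in the labels, so SDs and p-values measure the spread between cells of 1 clone only.

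The clusters ranged from frequent contact to none. 10p11 was in contact at 45.1% ± 27.0 of its bins per cell (SD, n = 118), 19p12 at 21.0% ± 19.7, 7q11 at 9.48% ± 10.4, 4p16 at 2.37% ± 6.49 and 19q13.43 at 2.33% ± 6.99. The remaining clusters of the long arm of chromosome 19 were near 0, with 0.530% ± 3.43 in 19q13.31, 0.377% ± 2.02 in 19q13.12 and 0.349% ± 1.40 in 19q13.41. No bin of 12q24 was in contact in any cell, and 0 of 118 cells allows a frequency of up to 2.54% for a bin when a floor of 3 cells is used, or 3.08% by the exact 95% interval used for the other bins. Gene clusters of 1 family thus covered a wide range of levels. By number set, 1 to 94 and then 96 to 124, the values were 41.8 and 55.7% for 10p11, 19.9 and 24.4% for 19p12, 8.61 and 12.3% for 7q11, 1.33 and 5.71% for 4p16, and 1.90 and 3.70% for 19q13.43. The genome as a whole was also higher in the second set, with contact shares of 31.9 and 36.5%.

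**Figure D1:**
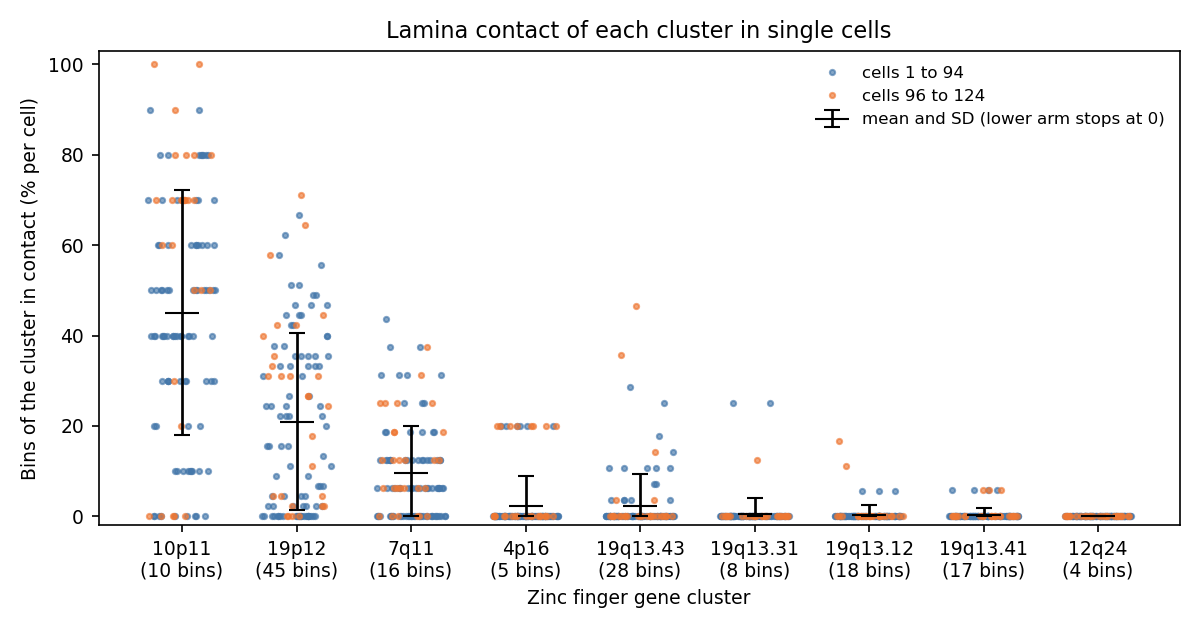
Percentage of the bins of each cluster in contact with the lamina in each of 118 cells (vertical axis, points), with the mean and SD over cells in black and cells coloured by sample number. 10p11 spreads from 0 to 100% and 19p12 from 0 to 71.1%, whereas 12q24 lies at 0 in all 118 cells.

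By bins, 35 of the 151 cluster bins, or 23.2%, reached a frequency of 20%, against 48.9% of all usable bins. 23 of them lay in 19p12, 9 in 10p11 and 3 in 7q11. No cluster bin reached 80% of cells, where 15.1% of all usable bins did. Contact was absent in all cells in 46 cluster bins, 30.5%, against 22.3% of all usable bins. 19p12 alone supplied 57.5% of all contacts of the clusters and 10p11 27.5%. At a contact value of 2, 13 cluster bins reached 20%, and the share of all usable bins that did so fell to 36.8%. Leaving out bins whose expected reads were under 50% of the median bin also left 13, with 94 cluster bins kept in all and 9 in 19p12. The share of all usable bins under this limit was not computed, so the lower count is not separated from the removal of bins.

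19p12, the largest cluster and one known for its expansion in primates, held most contacts of chromosome 19 with the lamina. It makes up 8.05% of the usable bins of the chromosome and held 57.1% of its contacts. The chromosome had 31 bins at 20% or more, and 23 of them lay in it. The other 4 clusters of the chromosome, over 71 bins, were at 1.16% ± 3.34, and the 443 bins outside all clusters at 1.41% ± 1.99 (SD, n = 118). Per cell the contact share of 19p12 had a lowest value of 0%, a median of 18.9% and a highest of 71.1%, the last in cell 117. 28 cells had no contact anywhere in its 4.5 Mb, 9 cells had over 50% of its bins in contact, and no cell had all of them.

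Within 19p12 contact came in stretches rather than evenly. The 2 outermost bins on the side away from the centromere were both at 5.08%, 6 cells each, and the 2 bins just outside were at 0. Frequency then rose over 0.4 Mb to 28.8% at 20.3 Mb. The highest bin, at 21.2 Mb, was in contact in 57 cells, 48.3% (exact Clopper-Pearson interval at 95%, 39.0 to 57.7%). From there it fell to 11.9% in the next bin, and the bin at 21.5 Mb was in contact in 3 cells, 2.54% (0.527 to 7.25%), a dip between more contacted sides. The bins from 21.9 to 22.8 Mb averaged 34.1% and those from 22.9 to 23.3 Mb 33.9%, with 44.1% at 22.9 Mb and 42.4% at 23 Mb. The last 11 bins, from 23.3 to 24.4 Mb, averaged only 5.24% ± 10.5, with 1 cell in contact at 23.5 Mb, the lowest bin of the cluster at 0.847%. The cluster was thus made of 2 well-contacted sides and a rarely contacted end toward the centromere. In all, 23 of its bins were at 20% or more, 16 from 5 to under 20%, 6 under 5%, and none at 0.

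**Figure D2:**
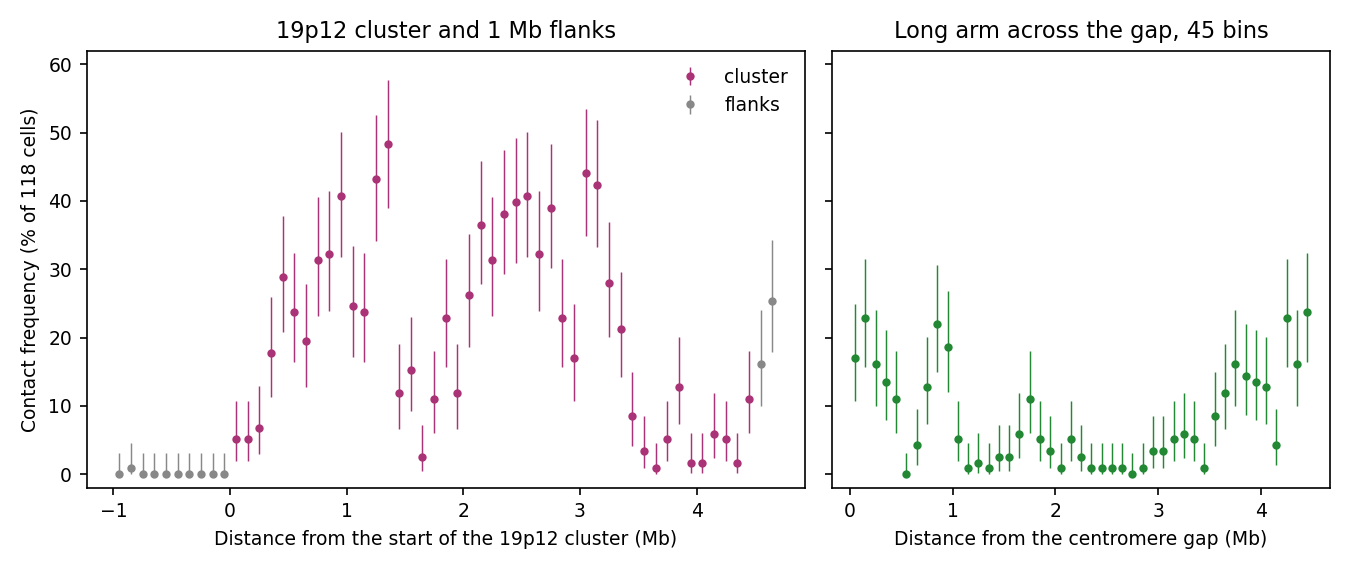
Contact frequency of each 100 kb bin (percentage of 118 cells, vertical lines are exact 95% intervals) along 19p12 and its 1 Mb flanks on the left, and along the 45 nearest usable bins on the other side of the centromere gap on the right. The cluster peaks at 48.3%, dips to 2.54% at 1.6 Mb from its start and falls to 5.24% on average in its last 1.1 Mb.

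The longer stretches of 19p12 at 20% or more were left out by many cells and covered whole by few. The 7 bins from 20.6 to 21.3 Mb averaged 34.9% ± 35.4 (SD, n = 118). 46 cells touched none of them, 40 touched over 50% and 6 touched all 7. The 9 bins from 21.9 to 22.8 Mb averaged 34.1% ± 32.7, and 40 cells touched none, 42 over 50% and 3 all 9. In the 4 bins from 22.9 to 23.3 Mb 50 cells had none and 11 had all, and in the 2 bins from 20.3 to 20.5 Mb 73 had none and 17 had both. The remaining stretch is the single bin at 21.7 Mb, with 27 cells. Cells thus ranged from no contact to most of a stretch.

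Both sides of the dip tended to touch the lamina in the same cells. The side before the dip, 16 bins, was at 23.6% ± 24.7 and the side after it, 28 bins, at 20.1% ± 19.3 (SD, n = 118). In 71 cells both sides had a contact, in 6 cells only the first, in 13 only the second, and in 28 neither. Across the 118 cells, whose values share a library and a depth, Pearson's r of the 2 sides was 0.782 and Spearman's rho 0.793. It was 0.784 with the contact share of the cell removed by regression, 0.791 among cells 1 to 94 and 0.783 among cells 96 to 124. The split at the dip was made after its values were seen, and these correlations are descriptions.

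**Figure D3:**
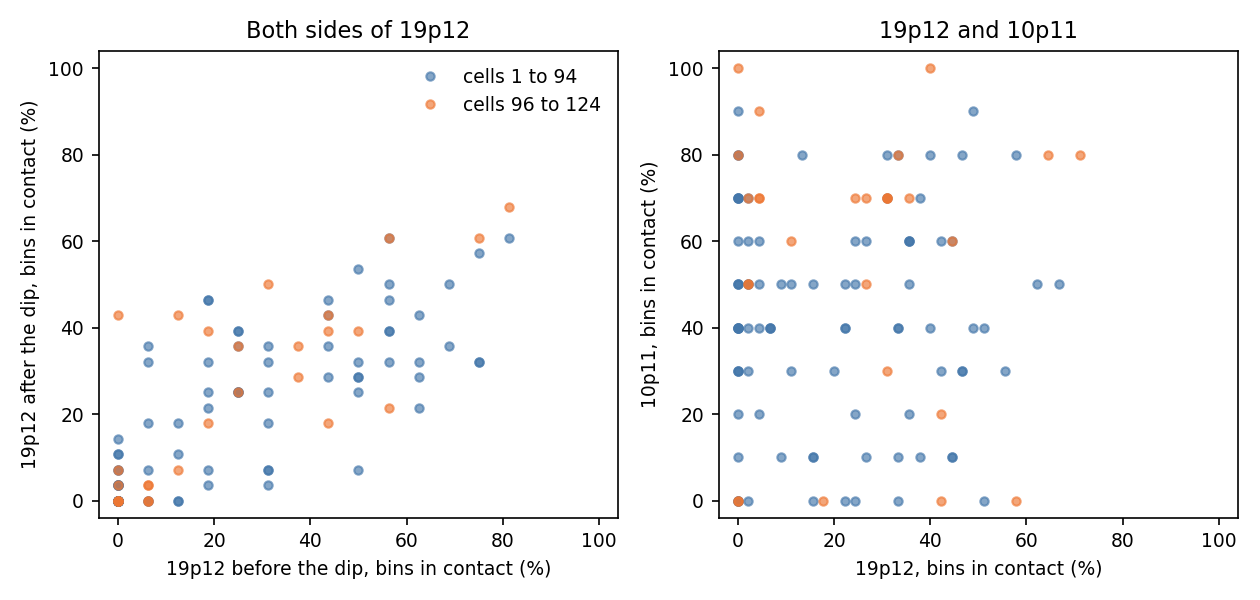
Each point is 1 of 118 cells, coloured by sample number. On the left the percentage of bins in contact before the dip of 19p12 (horizontal) against that after it (vertical) rises together, with r = 0.782, and on the right 19p12 (horizontal) against 10p11 (vertical) has r = 0.0458.

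In single cells the contacts of 19p12 were scored in short runs of adjacent bins. The 90 touching cells held 508 runs, a median of 6 per cell and up to 12. The mean run was 0.219 Mb and the median 0.1 Mb, and the longest, in cell 25, was 1.4 Mb. Runs of at least 0.5 Mb held 32.5% of the contact bins, runs of at least 1 Mb 4.40%, and single bins 23.9%. 4 cells had a run of 1 Mb or more. Bins in contact had a median ratio of 1.86. No read was found for 59.5% of the values of the cluster, and the part of thin coverage in splitting the runs was not tested. Run lengths were not computed for other regions or under the alternatives.

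**Figure D4:**
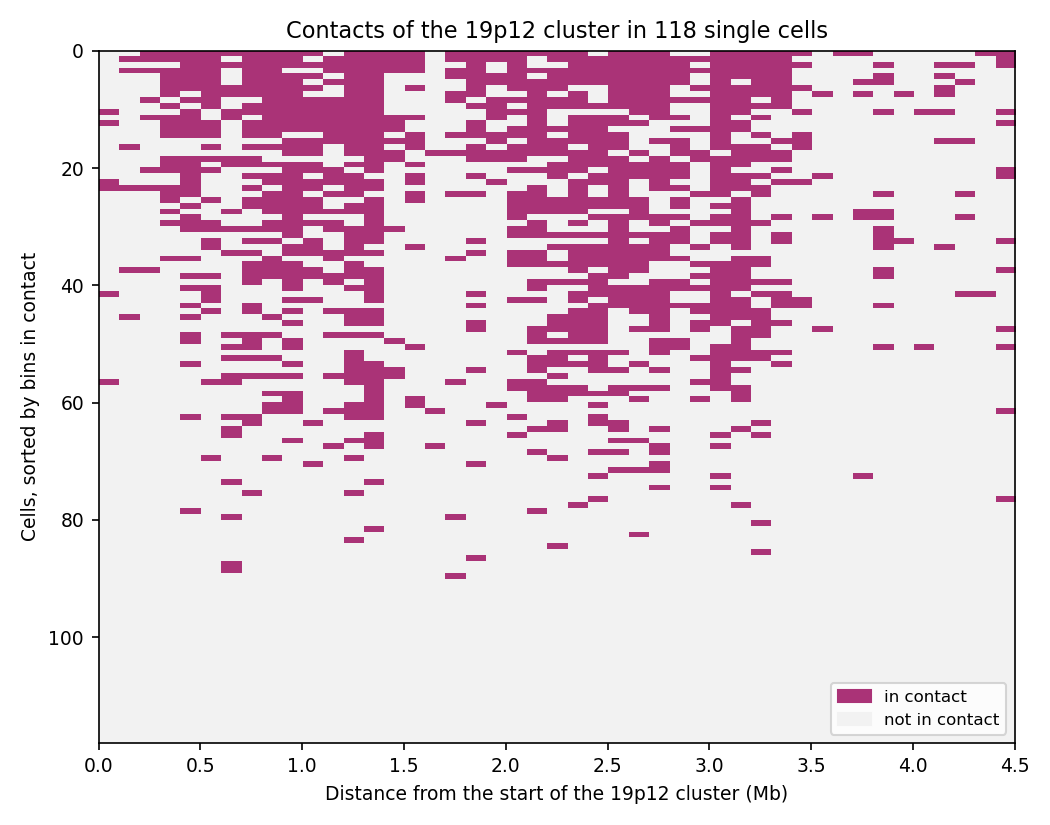
Contact map of 19p12, with 1 row per cell sorted by the number of bins in contact (118 cells) and position in Mb from the start of the cluster across. Coloured squares are bins in contact, the dip at 1.6 Mb and the last 1.1 Mb are nearly empty, and the last 28 rows have no contact.

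19p12 was more often in contact than its surroundings. Its flanks, the usable bins within 1 Mb on either side, were in contact at 3.53%, made of 0.0847% over 10 bins on the side away from the centromere and 20.8% over 2 bins between the cluster and the centromere gap. Those 2 bins were near the 21.0% of the whole cluster and above its last 2 bins, at 6.36%. A value of 1 in them stood for 1.10 and 0.784 reads in the median cell. The difference was 17.4 percentage points ± 17.5 (SD, n = 118), with the cluster higher in 86 cells and lower in 7. In a two-sided paired permutation test over cells, p was 1e-05, the smallest that 100000 permutations can give, and the adjusted p was 1.62e-05 over 2702 comparisons that include every 1 Mb window of the genome. The same test called 36.2% of 2654 such windows higher than their own flanks, so that a higher value is common. The difference stayed between 7.71 and 24.8 points under the 10 alternatives, all of them called.

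The region of the long arm across the centromere gap was less contacted than 19p12. The gap is the longest stretch of chromosome 19 without usable bins, 24.6 to 27.7 Mb, and the 45 nearest bins beyond it had 7.95% ± 12.6. These were at 16.9 and 22.9% in the first 2 bins, at 0% in the bins 0.5 and 2.7 Mb from the gap and at 23.7% in the farthest bin, 4.4 Mb from it. 19p12 was higher by 13.0 points ± 19.0, in 80 cells against 17 (permutation p = 1e-05, adjusted p = 1.62e-05), one of 3 such comparisons, of which 100% were called. Over the 118 cells r of both sides of the gap was 0.372.

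Reads were thin in 19p12. Its median bin had 42.7% of the expected reads of the median bin of the genome, 2.41 reads made a value of 1 in the median cell, and 59.5% of its values had no read, against 45.6% of all values. The share without a read does not measure thin coverage alone. It was 79.3% in 19q13.43, with 95.4% of the expected reads, and 33.3% in 10p11, with 57.8%. In the thinnest bin of 19p12, at 20.5 Mb, a value of 1 stood for 0.196 reads, so any single read there made a contact. Across its 45 bins, which share the cells, r of frequency and expected reads was -0.0356. With only the 9 bins of higher expected reads the contact share was 21.8%, and with each cell thinned to 50000 reads it was 22.9% in the 109 cells that had as many.

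10p11 had the highest level of the 9 clusters and lay between flanks of unlike level. It holds 4 listed genes, from ZNF248 to ZNF37A with ZNF33A and ZNF25. Its share per cell ran from 0% over a median of 50% to 100%, with 14 cells at 0, 45 cells over 50% and 2 cells with all 10 bins in contact. The 3 bins from 37.7 to 38 Mb were at 68.6, 72.9 and 68.6%, and frequency fell to 23.7% at 38.2 Mb. The bin at 38.3 Mb was lowest, with 7 cells or 5.93%, and the next 3 bins had 44.1, 51.7 and 23.7%. A value of 1 stood for under 1 read in the last 2 of these, 0.980 and 0.410 reads in the median cell, and the part of this thin coverage in their values was not tested. The 6 bins before the lowest one, at 54.2% ± 32.0, and the 3 after it, at 39.8% ± 33.0, both had a contact in 77 cells. In 22 cells only the first had one, in 5 only the second, and in 14 neither.

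The 10 bins before 10p11 were at 64.7% and the 5 bins after it at 20.3%. Neither flank fell steadily: the first ran from 30.5% at 36.8 Mb to 84.7% at 37.2 Mb and 69.5% at 37.6 Mb, and the second from 11.0% at 38.7 Mb to 32.2% at 38.9 Mb. In the bins of the second, 0.249 to 0.570 reads made a value of 1 in the median cell. Against all flanks, at 49.9%, the difference was -4.80 points ± 17.6 (SD, n = 118), with the cluster lower in 62 cells and higher in 45 (permutation test, adjusted p = 0.00549). The test called 42.1% of all 1 Mb windows lower than their flanks. The call rested on cells 1 to 94, at -6.74 points (adjusted p = 0.00105), while cells 96 to 124 gave 1.43 points (adjusted p = 0.736). It was also lost at a contact value of 0.5, at 0.904 points, with flanks of 0.5 Mb, and after thinning. The 10 nearest usable bins across the gap of 39.2 to 40.7 Mb were at 18.1%. Only the first of them adjoined the gap, at 1.69%. The others started 1.6 to 2.4 Mb from it, beyond a further stretch without usable bins. 10p11 was 27.0 points higher than these bins ± 24.0, in 89 cells against 9 (permutation test, adjusted p = 1.62e-05). The comparison is thus mostly with bins that begin at the far edge of this further stretch. Only the bin at 1.69% parts that stretch from the gap. Whether both belong to the same centromere gap was not tested, so these bins may also adjoin it.

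7q11 was divided into a contacted and a nearly free part. Its genes run from ZNF727 to ZNF92, and ERV3-1, the envelope gene of an endogenous retrovirus, lies among them. From the first bin, the 6 bins up to 64 Mb had 44.1, 30.5, 22.0, 18.6, 15.3 and 11.9%, each lower than the one before. The bin at 64 Mb then had 1.69%, and the last 10 bins averaged 0.932% ± 3.92, against 23.7% ± 25.5 in the first 6 (SD, n = 118). The descent was not a single edge at which every cell stopped, since of 14 cells in contact at 63.9 Mb only 8 were also in contact at 63.4 Mb, where 52 cells were. Per cell, the share of the whole cluster ran from 0% over 6.25% to 43.8%, and 42 cells had none. The split was made after the values were seen.

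Compared with its flanks, 7q11 had no settled direction. The 9 bins on the centromere side were at 22.2% and the 8 bins beyond at 0.106%, and the difference was -2.33 points ± 8.79 (SD, n = 118; cluster lower in 54 cells, higher in 42; permutation test, adjusted p = 0.00651). With flanks of 0.5 Mb it was 4.28 points higher (adjusted p = 7.34e-05), and without bins of low expected reads 3.97 points higher (adjusted p = 0.000795). Some flank bins were very thin, with 0.160 reads behind a value of 1 at 62.9 Mb. The 16 nearest bins on the short arm, across the gap of 58.1 to 59.5 Mb, were at 26.2%, and the difference of 7q11 from them was -16.7 points ± 18.0, lower in 94 cells and higher in 13 (adjusted p = 1.62e-05).

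**Figure D5:**
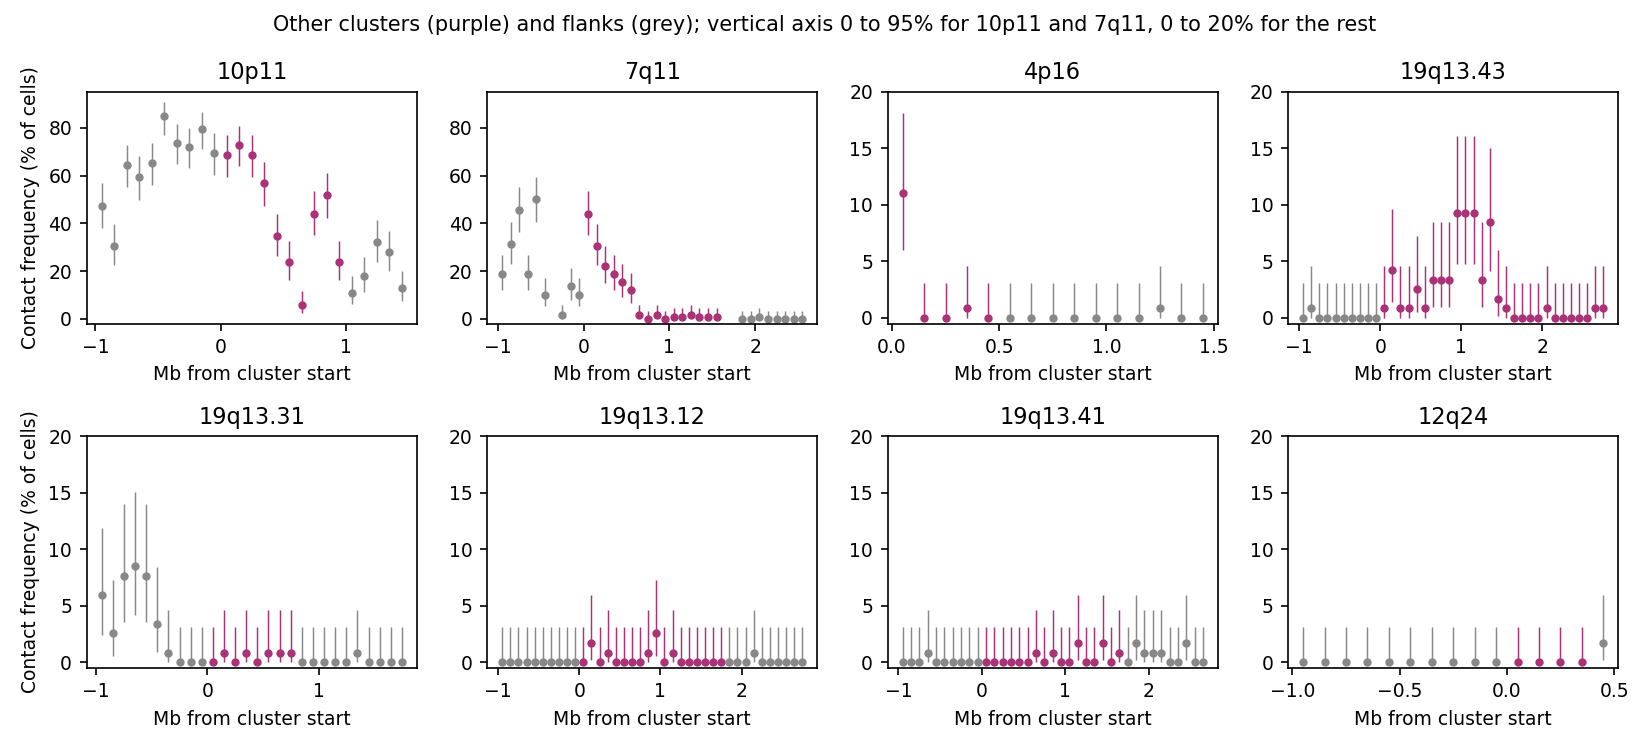
Contact frequency (percentage of 118 cells, with exact 95% intervals) along the other 8 clusters in purple and their 1 Mb flanks in grey, by distance from the cluster start in Mb. The vertical axis runs to 95% for 10p11 and 7q11 and to 20% for the others. 10p11 falls to 5.93% and rises again, 7q11 falls along its length, 4p16 has contact mainly in its first bin at 11.0%, and 19q13.43 has a rise to 9.32%.

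4p16, at the very start of chromosome 4 with ZNF595, ZNF718, ZNF732, ZNF141 and ZNF721, owed its level to a single bin. The first 100 kb were in contact in 13 cells, 11.0% (6.00 to 18.1%), and the other 4 bins averaged 0.212%, from 1 cell. The first bin was at 5.56% over cells 1 to 94 and at 28.6% over cells 96 to 124. The cluster was 2.29 points above its only flank ± 6.59 (SD, n = 118), higher in 14 cells and lower in 1 (permutation test, adjusted p = 0.000122). The difference was 1.33 points in cells 1 to 94 (adjusted p = 0.0429) and 5.36 points in cells 96 to 124 (adjusted p = 0.0143). Without the outermost 2 bins the difference was -0.106 points, and the call was also lost at a contact value of 2 and without bins of low expected reads, which left 0.339 and 0.118 points.

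19q13.43, at the end of the long arm, was free of contact in 97 cells. It is the cluster with the most listed genes, 48, and includes the imprinted zinc finger gene PEG3 with its neighbours ZIM2 and USP29, ZIM3, whose KRAB domain is known as a strong repressor, and TRIM28. Bins from 57.2 to 57.7 Mb averaged 7.97% ± 20.9 and the other 23 bins 1.11% ± 4.96 (SD, n = 118). The bins at 57.2, 57.3 and 57.4 Mb were each at 9.32%, 11 cells, and drew on 17 different cells, 5 of which were in contact in all 3. The second highest level in the cluster was 8.47% at 57.6 Mb, and 9 of its 10 cells also touched one of those bins. Cells 98 and 119 stood apart with 46.4 and 35.7% of the cluster in contact, and both belong to the set numbered 96 to 124. Of its 21 touching cells 19, or 90.5%, also touched 19p12, as did 76.3% of all cells, and of the 90 cells touching 19p12 21.1% touched it. Over the 118 cells r of both shares was 0.147.

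Against its only flank, at 0.0847%, 19q13.43 was 2.25 points higher ± 6.64 (SD, n = 118), higher in 21 cells and lower in 0 (permutation test, adjusted p = 1.62e-05). Leaving out cell 98 gave 1.87 points. In cells 1 to 94 alone it was 1.90 points (adjusted p = 6.74e-05), and in the 28 cells numbered 96 to 124 it was 3.34 points and no longer called (adjusted p = 0.0934). Its median bin had 95.4% of the expected reads of the median bin of the genome, the highest of the 9 clusters.

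The other clusters of the long arm of chromosome 19 stayed away from the lamina in nearly every cell. In 19q13.12, with 30 listed genes from ZNF565 to ZNF573, 113 cells had no contact and the highest bin was at 2.54%. Cell 119, with 16.7%, lifted its mean, which was 0.237% without that cell. In 19q13.31, which holds ZNF45, ZNF112 and ZNF180, 115 cells had none, and its mean of 0.530% came from 3 cells and was 0.321% without cell 7. In 19q13.41, with ZNF83, ZNF160 and ZNF808, 111 cells had none and no bin exceeded 1.69%. 12q24, with ZNF10, ZNF26, ZNF84, ZNF140 and ZNF268, had no contact in any cell, and 1 bin at its end, the only flank bin on that side, had 1.69%. Values without a read made up 85.4 to 89.0% of these 4 clusters, and 4.03 to 4.97 reads in the median cell made a value of 1, more than in 19p12.

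With contact at a value of 1 and all reads kept, only 19q13.31 of these 4 passed the test against its flanks. The difference was -1.33 points ± 5.93 (SD, n = 118; cluster lower in 23 cells, higher in 3; permutation test, adjusted p = 0.0193). The flank signal came from 43.2 to 43.8 Mb, a region known for the pregnancy-specific glycoprotein genes, where bins reached 8.47% but the highest needed only 0.517 reads for a value of 1. Without bins of low expected reads the difference was 0.409 points, and it was above 0 as well with flanks of 0.5 Mb, at a contact value of 0.5 and after thinning. Neither set of cells alone gave a call by the permutation test, though the differences were alike. They were -1.33 points in cells 1 to 94 (adjusted p = 0.0664) and -1.34 points in cells 96 to 124 (adjusted p = 0.249). 19q13.12 was 0.334 points above its flanks ± 2.08 (adjusted p = 0.0777, higher in 5 cells and lower in 1), 19q13.41 was 0.00997 points above ± 1.77 (adjusted p = 1, 6 against 5 cells), and 12q24 differed by -0.154 points ± 1.18 (adjusted p = 0.555, lower in 2 cells). For 12q24, with only 2 cells unlike their flanks, no outcome of the test could have passed the threshold. After thinning, 19q13.12 was called higher (0.754 points, adjusted p = 0.0043), as was 19q13.41 (0.691 points, adjusted p = 0.0192). At a contact value of 0.5, 19q13.12 was called higher too (1.33 points, adjusted p = 0.00611). At these levels a difference could be carried by a few cells only.

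In all, 3 of 9 clusters were higher than their flanks (19p12, 19q13.43 and 4p16), 3 were lower (10p11, 7q11 and 19q13.31) and 3 did not pass the threshold. Of the last 3, 12q24 could not have passed, since it differed from its flanks in 2 cells only. With 36.2% of windows called higher and 42.1% lower in the whole genome, these counts are near the background and say nothing particular about zinc finger clusters. Only the call of 19p12 was kept in each alternative.

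Clusters were compared with each other in 36 pairs, of which 30, or 83.3%, passed the same test. Pairs of other regions were not tested, so this count has no background of its own. Calls are common in the test, with 36.2% of 1 Mb windows called higher and 42.1% lower than their flanks. Pairs with 12q24, at 0 in all cells, are part of the count. In the order of levels, 10p11 exceeded 19p12 by 24.1 points (normal 95% interval 18.2 to 30.0; higher in 84 cells, lower in 28), 19p12 exceeded 7q11 by 11.5 points (7.77 to 15.2; 77 against 33 cells), and 7q11 exceeded 4p16 by 7.11 points (4.88 to 9.34; 72 against 11 cells), each at an adjusted p of 1.62e-05 by the permutation test. 4p16 and 19q13.43 could not be separated, with a difference of 0.0424 points and an interval of -1.51 to 1.60 (adjusted p = 0.997, 13 against 17 cells). 19q13.43 exceeded 19q13.31 by 1.80 points (0.456 to 3.15; adjusted p = 0.0105, 21 against 2 cells). Among 19q13.31, 19q13.12 and 19q13.41 neighbours in the order did not differ beyond their spread, with intervals of -0.489 to 0.795 and -0.336 to 0.391 points (adjusted p = 0.709 and 1). 19q13.41 stood 0.349 points above 12q24 (0.0972 to 0.601; adjusted p = 0.0201), from 7 cells. With 12q24 at 0 in all cells over only 4 bins, that p is set by the number of cells touching 19q13.41, and it does not order the clusters.

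Contact shares of clusters on different chromosomes had correlations over cells that were small in all cells together and differed between the number sets. Each cell touched at least 1 cluster and a median of 3, with 14 cells touching 1, 36 touching 2, 49 touching 3, 11 touching 4, 6 touching 5, 1 touching 6 and 1 touching 7. Only 3 cells had over 50% of both 19p12 and 10p11 in contact, 6 had it in 19p12 alone and 42 in 10p11 alone. Over the 118 cells, which differ in depth, r was 0.0458 for 19p12 and 10p11, 0.176 for 19p12 and 7q11, and 0.0951 for 10p11 and 7q11. Among cells 1 to 94 the same values were 0.0371, 0.100 and 0.160, and among cells 96 to 124 they were -0.00302, 0.354 and -0.179. With their own flanks the values were larger, with r = 0.526 for 19p12, 0.644 for 7q11 and 0.770 for 10p11, whereas 19p12 and 19q13.43, far apart on 1 chromosome, had 0.147. For 10p11 and the contact share of the whole cell r was 0.446, with 0.497 among cells 1 to 94 and 0.0989 among cells 96 to 124, and with recovered reads it was 0.363. For 19p12 and the contact share r was 0.0503, with 0.0711 and -0.247 in the number sets, and with recovered reads it was -0.0368. For 7q11 and the contact share r was 0.158, with 0.0938 and 0.223. All of these are descriptions over cells.

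The mean ratio, which uses no limit for contact, put the clusters in nearly the same order. It was 1.20 ± 0.763 in 10p11, 0.600 ± 0.588 in 19p12, 0.268 ± 0.237 in 7q11, 0.104 ± 0.192 in 19q13.43 and 0.0884 ± 0.131 in 4p16 (SD, n = 118), and between 0.0381 and 0.0527 in the others. The flanks were at 1.37 for 10p11, 0.121 for 19p12 and 0.406 for 7q11. A ratio of 1 is what the deposited expectation gives, so 10p11 alone was above it on average.

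The density of listed genes, set beside these levels, parted the clusters into a sparser group with more contact and a denser group with less. There was no single order within either group. Other coding genes were not counted in this density, and the span of 19q13.43 holds 80 coding genes for 48 listed. 10p11 had 4 listed genes per Mb, 7q11 6.88 and 19p12 7.11, the lowest densities and the 3 highest contact shares. 4p16 had 10, 19q13.12 16.7, 19q13.43 17.1, 12q24 17.5, 19q13.41 19.4 and 19q13.31 25 per Mb, all with contact shares of at most 2.37%. The 3 sparser clusters also lie nearest a centromere gap, 0.2 Mb from it for 19p12, 0.5 Mb for 10p11 and 3.9 Mb for 7q11. These distances are to the longest stretch of the chromosome without usable bins, and the centromere itself was not located. The same clusters have the fewest expected reads per bin, so that density, position and mappable reads cannot be told apart over 9 clusters.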

How the data were processed

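Lamina contact was measured by single-cell DamID in haploid KBM7 cells of clone 14. The authors deposited 1 table of the ratio of observed to expected reads in 100 kb bins, with the expectation undescribed. Per the submitters' processing notes, cutadapt and Bowtie2 2.1.0 and the build hg19 were used; further steps were not given in the sources used here. It has columns for 118 of 124 samples, and those numbered 33, 34, 44, 86, 95 and 120 were not analysed here. Usable bins hold a number in all cells, and in 1 or more of them it is above 0, which left 26426 of 30376. Whole reads were recovered from the ratio steps, and 100% of 1697706 values above 0 came out whole to within 0.02 reads. Contact was a value of 1 or more. Intervals on frequencies cover the counting of cells only.

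Contact shares were compared within cells by two-sided permutation tests with 100000 sign flips and Benjamini-Hochberg adjustment over 48 cluster comparisons and 2654 windows of 1 Mb with at least 5 usable bins in the window and in its flanks, with a threshold of 0.05. Flanks left out bins of another cluster. Intervals on differences are the mean ± 1.96 standard errors. Python 3.11.15, numpy 2.4.6, pandas 2.3.3, scipy 1.17.1 and matplotlib 3.10.9 were used, and the procedure was tested on simulated data. Of each cluster, the highest and lowest bins, the bins at its edges and the bins at 20% or more were named. Genes are background from general knowledge, matched by symbol to RefSeq (GRCh38.p14). Members and lists were chosen with earlier results of these data known, and splits within clusters and single cells or bins outside the rule were named after their values were seen. The alternatives were other contact values, sets of cells, depths, flanks, edges and a limit on expected reads.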

Additional observations from a re-analysis of the deposited data

How the results depend on the processing

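Of 204 values of 23 results under 10 alternatives, 164 kept their direction and side of the threshold or moved by less than 1 SD between cells (counts by at most 1.5 times, which includes counts of clusters that went from 3 to 2). The share of 19p12 and its differences from the flanks and from the far side of the gap did so throughout. Cluster bins at 20% or more numbered 13 instead of 35 at a contact value of 2 and also without bins of low expected reads, which keeps 94 of the 151. Clusters above their flanks numbered 5 instead of 3 after thinning, with 19q13.12 and 19q13.41 added. 19q13.12 was also added at a contact value of 0.5. The share of 12q24 rose from 0 to 1.27% at a contact value of 0.5 and to 0.459% after thinning. Clusters below their flanks numbered 0 instead of 3 at a contact value of 0.5, in cells 96 to 124, with flanks of 0.5 Mb and after thinning, and 1 without bins of low expected reads. Signs turned for 10p11 in cells 96 to 124 (1.43 points) and at a contact value of 0.5 (0.904), for 12q24 at 0.5 (0.424), for 19q13.31 at 0.5 (0.275), with flanks of 0.5 Mb (0.106), after thinning (1.26) and without bins of low expected reads (0.409), for 19q13.41 in cells 96 to 124 (-0.798), in cells with at least 3 reads behind a value of 1 (-0.102), with flanks of 0.5 Mb (-0.0748) and without bins of low expected reads (-0.0565), for 4p16 without its outermost 2 bins (-0.106), and for 7q11 with flanks of 0.5 Mb (4.28) and without bins of low expected reads (3.97). Apart from bins or cells removed by construction, the cause was not tested. 12q24 has no value without its outermost bins, since none are left. Thinning also drops the cells under 50000 reads and leaves 109. In 14 cells a value of 1 stood for under 3 reads in the median bin.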
